A study of Drosophila melanogaster with 18 samples.

Results

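Chitin is a polymer of N-acetylglucosamine that stiffens the cuticle of insects, lines their tracheal tubes and foregut, and forms part of the peritrophic matrix that separates food from the midgut wall. The 34 genes described here make this polymer, bind it, modify it or cut it, or are relatives of the enzymes that cut it. They were taken by FlyBase symbol from the 17825 genes of the Drosophila melanogaster count table. Every gene whose symbol starts with Cht, Cda or Idgf and a digit, or with obst-, was taken, together with kkv, Chs2, Gasp, serp, verm, knk and mmy, so the rule itself uses no measured value. By role, 3 genes belong to synthesis, 6 to the organisation and deacetylation of chitin, 9 to chitin binding, 10 are chitinases and 6 are Idgf genes.

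Poly(A) RNA was sequenced from untreated flies of w1118 (BDSC 5905), an isogenic strain used as wild type, in 9 conditions of 2 libraries each. The adult parts were heads, bodies and gonads of males and females, labelled 24 h old, where a body is the abdomen with the thorax. The stages were 18 h embryos, wandering larvae of instar 3 and whole adults labelled 24 h old, for which the labels give no sex and the text of the study gives more than one age. Each library held between 37198249 and 87676051 counts. Nothing in the labels says that the 2 libraries of a condition came from separate cultures, so p-values measure only the spread between these libraries, which may be technical. In such tissue samples, fewer cells of a type and less RNA per cell cannot be told apart.

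The adult parts were read at 150 bp with a strand-specific protocol and the stages at 100 bp without strand information, so they were normalised and tested apart, and no test was run between them. Levels are given as CPM, the counts per 1000000 counts of the library size after trimmed-mean (TMM) scaling. A gene was called different when edgeR's quasi-likelihood test gave a Benjamini-Hochberg adjusted p under 0.05 over all genes tested and the log2 fold change was at least 1 either way. Fold changes are written as log2 values with their standard error (SE).

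The summed level of the testis markers was 5193 and 3586 CPM in testes and 2172 and 1641 CPM in male bodies, and that of the ovary markers was 12570 and 8943 CPM in ovaries and 7517 and 9872 CPM in female bodies, so gonad markers were abundant in the bodies too. In heads the testis markers dj, Mst87F and can were at most 3.94 CPM, while bol had 761 to 1024 CPM there. The 2 libraries of a body condition differed in the summed level of the flight muscle markers, with 745 and 3046 CPM in males and 438 and 1682 CPM in females. Act88F made up almost all of these sums. The marker fln went the other way, with 2.02 and 1.06 CPM in male bodies and 1.02 and 0.47 in female bodies. The larval libraries differed in midgut markers, with 2888 and 1464 CPM, and more widely in the summed level of the cuticle tanning genes, with 840 and 130 CPM (ple 255 and 11.5, Ddc 335 and 36.8). Among these defining markers, Arr2 (photoreceptors), Cp36 (egg chambers), TpnC4 (flight muscle) and Sgs4 (larval salivary gland) were at 0 in all 9 conditions, and the neuronal elav was at 0 in male heads. Overlap with other genes, which removes counts as described below, was not examined for these markers. Their values of 0 are therefore not read as absence of RNA. Ovary markers summed to only 11.4 and 11.5 CPM in the whole adults.

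Of the 34 genes, 30 had counts and 4 were at 0 in all 18 libraries. The table counts reads over the whole span of a gene and holds 0 for genes that lie wholly within others. Idgf1 (inside CG5888), Idgf6 (inside Pgant9) and obst-J (inside gig) are fully overlapped, and the antisense gene asRNA:CR45829 covers 95.9% of obst-I, so these genes have no value here. Partial overlap also limits 3 genes that are named below. Antisense genes cover 79.3% of the span of Cht9 and 60.3% of that of knk, and CG5888 covers 35.9% of that of Idgf2, so the levels of these genes are those of the remaining span.

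Chitin is built at the apical membrane of epithelia by chitin synthases, of which Drosophila has a pair. The one encoded by kkv serves epidermis and trachea, and the one encoded by Chs2 serves the midgut. Both use UDP-N-acetylglucosamine, whose last step of synthesis is catalysed by the pyrophosphorylase mmy. Secreted deacetylases such as serp and verm and the membrane-anchored knk order the fibres, proteins with peritrophin domains such as Gasp and the obst family bind them, and chitinases cut them when cuticle is shed. Idgf proteins (imaginal disc growth factors) have the fold of chitinases but lack their catalytic activity, and are secreted by fat body and hemocytes among other tissues.

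The genes with counts were present in most conditions, and the ovary had the fewest. With at least 10 counts in both libraries, 30 genes were detected in larvae, 29 in embryos, 27 in whole adults and male bodies, 26 in female bodies and female heads, 25 in male heads and testes and 18 in ovaries. Those 18 in ovaries are 52.9% of the 34 genes, where 50.9% of all genes were detected. In larvae the corresponding shares were 88.2% and 62.1%. A core of 16 genes was detected in all 9 conditions: kkv and mmy, Cda5, serp and verm, Gasp, obst-A and obst-B, Cht2, Cht6, Cht7, Cht10 and Cht11, and Idgf2, Idgf3 and Idgf4. Cht12 was the one gene with counts that embryos lacked, and obst-G had no count in any library of adults or adult parts.

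**Figure D1:**
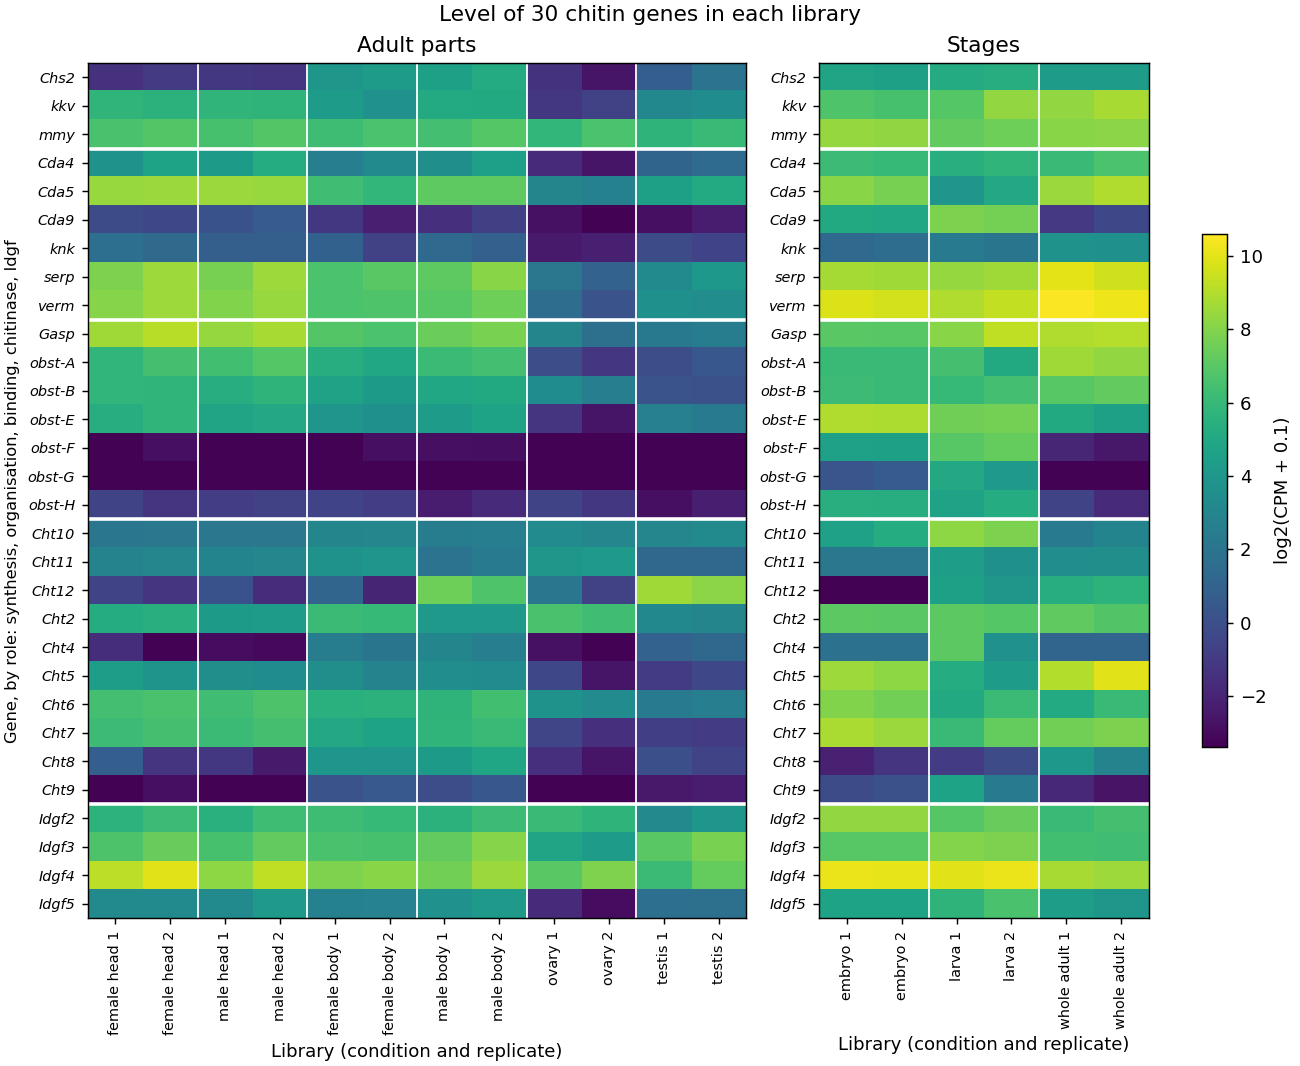
Each row is 1 of the 30 chitin genes with counts, each column 1 library, and the colour gives log2(CPM + 0.1), with adult parts and stages normalised apart. Ovaries are the darkest columns among the adult parts, and obst-F and obst-G are dark in all adult samples and light in larvae.

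Per length, Idgf4 was the most abundant of the 30 genes with counts in 7 of the 9 conditions. On the scale of CPM per kilobase of merged exons, its mean level was 604 in embryos, 598 in larvae, 434 in female heads, 251 in male heads, 151 in male bodies, 139 in female bodies and 101 in ovaries. In testes Cht12 led with 203 CPM per kilobase, and in whole adults verm led with 559, followed by Cht5 and serp with 359 each. The level of Cht12 in testes was 203 CPM per kilobase against 61.8 for Idgf4, the next gene there.

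From embryo to larva the group split. Of 30 genes tested, 10 rose and 6 fell in larvae (33.3% and 20.0%), beside 31.7% and 19.3% of the 12335 genes tested. The median change of the 30 genes was 0.33 (log2), beside 0.31 for all genes. These shares lie close to the background, so what follows is about single genes.

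Levels in whole adults showed a similar split with other genes. Against larvae, 8 genes rose (26.7%) and 11 fell (36.7%), beside 23.1% and 17.8% of all genes, with a median change of -0.01 beside -0.02. Against embryos, 9 rose and 10 fell (33.3%), beside 29.7% and 19.0% of all genes, with medians of -0.25 and 0.11. The count against embryos fell to 5 higher and 9 lower without embryo replicate 2, and to 6 and 9 without embryo replicate 1 or whole adult replicate 2. The 3 comparisons share their libraries, so the gene-wise changes are given for each on its own.

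Of the synthesis genes only kkv was called between stages, in 1 of the 3 comparisons. The epidermal chitin synthase kkv (chromosome 3R, 5378093 to 5392866, dmel r6.15) had 108 and 93.5 CPM in embryos, 120 and 323 in larvae and 316 and 442 in whole adults. One larval library lay close to the embryos and the other within the range of the whole adults. The rise from embryo to adult was 1.91 ± 0.46 (SE, adjusted p = 0.0106), and the call was lost without either embryo library (2.01 and 1.80) and without whole adult replicate 2 (1.64). Chs2, the midgut enzyme (chromosome 3L, 21962401 to 21969964), had 27.1 and 23.8 CPM in embryos, 36.5 and 39.5 in larvae and 20.2 and 20.5 in whole adults. The larvae were the highest and no groups overlapped, but the differences were under the fold limit, with 0.58 ± 0.17 from embryo to larva and -0.90 ± 0.17 from larva to adult. For mmy the libraries had 335 and 305 CPM in embryos, 153 and 185 in larvae and 280 and 288 in whole adults. Larvae were lowest, with a change of -0.92 ± 0.20 from embryos and of 0.75 ± 0.20 to adults, both also under the limit.

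By mean level the organisation genes were highest in whole adults, apart from Cda9. The libraries of Cda4 overlapped between adults and embryos, and only knk and serp were called higher in adults than in embryos. verm (chromosome 3L, 19690033 to 19695260) and serp (19700977 to 19708015) are neighbours that encode secreted chitin deacetylases known from the control of tracheal tube length. For verm the counts gave 944 and 793 CPM in embryos, 494 and 648 in larvae and 1451 and 1197 in whole adults. For serp they gave 412 and 394, 340 and 392, and 1044 and 781 CPM. Both genes rose from larva to adult, verm by 1.21 ± 0.26 (adjusted p = 0.0092) and serp by 1.32 ± 0.24 (adjusted p = 0.00465). Against embryos serp rose by 1.18 ± 0.24 (adjusted p = 0.00518), a call lost without embryo replicate 2 (1.14) or whole adult replicate 1 (0.93), and verm did not pass.

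Cda5 and Cda9, other deacetylase genes of the family, moved in opposite ways. Cda5 had 272 and 214 CPM in embryos, 14.7 and 33.6 in larvae and 365 and 484 in whole adults. It was thus low only in larvae, by -3.33 ± 0.43 against embryos (adjusted p = 0.000649), and rose by 4.13 ± 0.45 to the adult (adjusted p = 0.00063). Cda9 had 34.2 and 31.2 CPM in embryos, 226 and 202 in larvae and 0.37 and 0.67 in whole adults. The change was 2.71 ± 0.25 from embryo to larva (adjusted p = 0.000156) and -8.66 ± 0.34 from larva to adult (adjusted p = 3.03e-05), and adults were below embryos by -5.96 ± 0.31 (adjusted p = 2.04e-05). Cda4 lay between 41.2 and 98.6 CPM in all 6 libraries and was called in no comparison of stages. knk, whose protein organises chitin at the cell surface, was low at 2.55 and 2.95 CPM in embryos, 4.82 and 3.94 in larvae and 13.9 and 12.1 in whole adults. Whole adults were above both other stages, by 1.57 ± 0.28 over larvae (adjusted p = 0.00404) and 2.24 ± 0.28 over embryos (adjusted p = 0.000608).

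Among the chitin-binding genes, obst-F, obst-G and obst-H were near 0 in whole adults, while obst-A and Gasp were high there. obst-F had 24.6 and 23.0 CPM in embryos, 127 and 157 in larvae, and 8 and 4 counts (0.17 and 0.08 CPM) in whole adults. Its change was 2.57 ± 0.23 from embryo to larva (adjusted p = 0.000134) and -10.16 ± 0.35 from larva to adult (adjusted p = 2.72e-05), and whole adults were below embryos by -7.59 ± 0.33 (adjusted p = 1.39e-05). obst-G had 1.12 and 1.49 CPM in embryos, 32.7 and 17.8 in larvae and no count in whole adults, where 3 counts per library would be 0.0621 CPM, so larvae were at least 407-fold and embryos at least 21.0-fold higher. obst-H lay at 42.1 and 40.3 CPM in embryos, 25.2 and 38.7 in larvae and 0.60 and 0.22 in whole adults. The fall from larvae to adults was -6.29 ± 0.48 (adjusted p = 0.000172), and that from embryos -6.65 ± 0.48 (adjusted p = 5.64e-05).

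obst-E, known in larval cuticle and the shape of the pupa, fell at each step, from 492 and 466 CPM in embryos through 189 and 203 in larvae to 34.6 and 23.1 in whole adults. The changes were -1.29 ± 0.24 (adjusted p = 0.0034) and -2.76 ± 0.25 (adjusted p = 0.000342), or -4.05 ± 0.27 from embryo to adult (adjusted p = 3.95e-05). obst-A, a scaffold protein of the cuticle (chromosome X, 20239855 to 20243209), had 66.6 and 68.8 CPM in embryos, 87.5 and 34.0 in larvae and 384 and 316 in whole adults. Whole adults were well above both, by 2.53 ± 0.43 over larvae (adjusted p = 0.00363) and 2.37 ± 0.43 over embryos (adjusted p = 0.00315). Gasp, which binds chitin in tracheal tubes, had 129 and 127 CPM in embryos, 273 and 624 in larvae and 488 and 530 in whole adults. Embryos were the lowest, by 1.81 ± 0.38 below larvae (adjusted p = 0.00589; 1.09 without larva replicate 2) and 1.99 ± 0.39 below adults (adjusted p = 0.00426). obst-B lay between 64.0 and 148 CPM and was called in no comparison of stages.

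**Figure D2:**
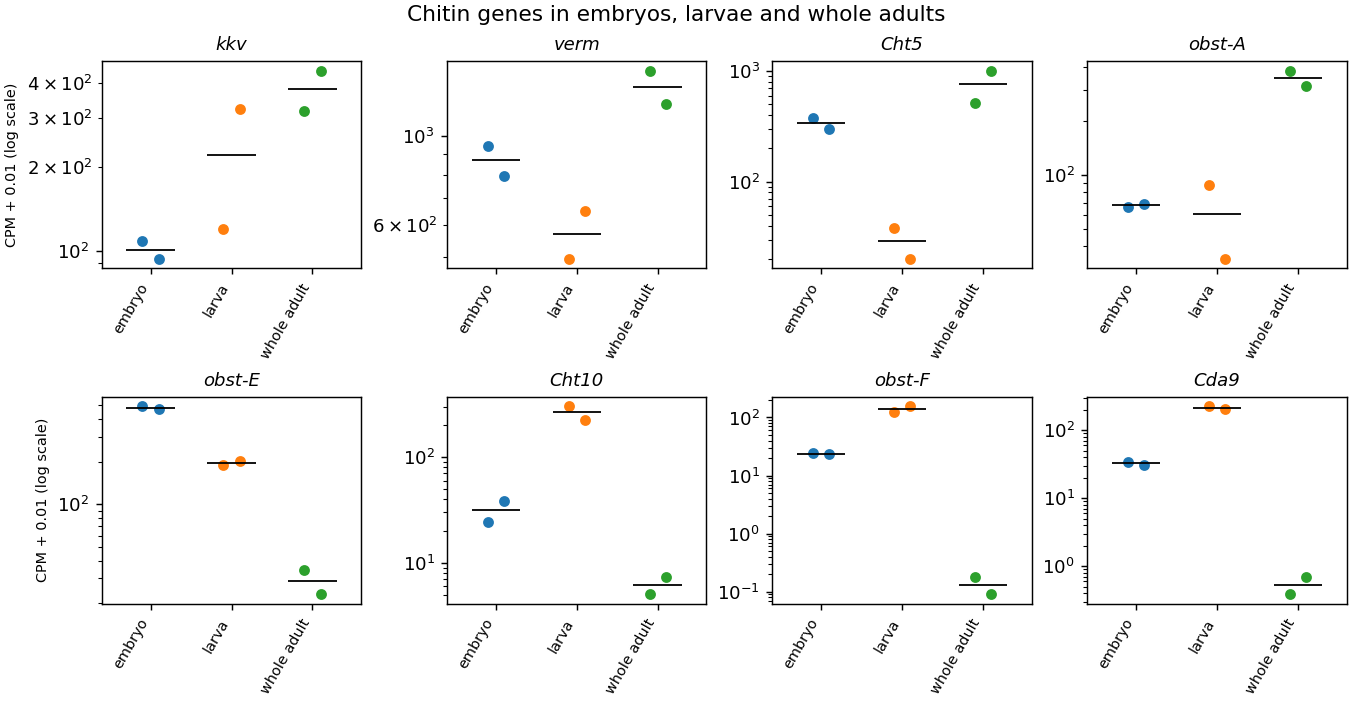
CPM + 0.01 on a log axis for 8 chitin genes in embryos, larvae and whole adults, with 1 point per library and a line at the mean of 2 libraries. Whole adults are highest for kkv, verm, Cht5 and obst-A and lowest for obst-E, Cht10, obst-F and Cda9, and the larval points of kkv and obst-A are far apart.

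The chitinases were the most divided group. Cht5 and Cht10 belong to families that are required for moulting in the beetle Tribolium, and here they were high at different stages. Cht5 had 375 and 297 CPM in embryos, 38.0 and 20.1 in larvae and 514 and 1011 in whole adults. It fell by 3.53 ± 0.46 from embryo to larva (adjusted p = 0.000688) and rose by 4.72 ± 0.49 to the adult (adjusted p = 0.000533). Its difference between adults and embryos, 1.18 ± 0.42 (adjusted p = 0.0468), was lost when scaled by DESeq2's size factors (1.19) and without either embryo library (1.35 and 1.01) or whole adult replicate 2 (0.61). Cht10 had 24.1 and 38.8 CPM in embryos, 303 and 226 in larvae and 5.03 and 7.33 in whole adults. It was thus highest in larvae, by 3.07 ± 0.33 over embryos (adjusted p = 0.000287), and fell by 5.42 ± 0.37 to the adult (adjusted p = 0.000138).

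Cht6 and Cht7 were highest in embryos. Cht7 had 454 and 363 CPM there, 66.6 and 158 in larvae and 195 and 227 in whole adults, a fall of 1.86 ± 0.41 in larvae (adjusted p = 0.0067). Cht6 had 247 and 199 CPM in embryos and between 34.4 and 70.7 in the other 4 libraries, and was lower in larvae by -2.09 ± 0.43 (adjusted p = 0.00504). Cht2 was called in no comparison of stages, with all 6 libraries between 110 and 143 CPM and no log2 change beyond 0.05 ± 0.20. Cht11 rose from 4.55 and 4.44 CPM in embryos to 21.7 and 12 in larvae (1.91 ± 0.33, adjusted p = 0.00231). Its rise to 11.1 and 11.5 CPM in adults (1.33 ± 0.32, adjusted p = 0.0107) was lost without any 1 of the 4 libraries (1.30 to 1.34).

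The remaining chitinases were near 0 in at least 1 stage. Cht12 had no count in embryos, 23.6 and 15.8 CPM in larvae and 39.7 and 50.1 in whole adults. With 3 counts per library as the floor, that was at least 585-fold and at least 1330-fold above embryos. The further rise to adults, 1.19 ± 0.27 (adjusted p = 0.0148), was lost without larva replicate 2 (0.92) or whole adult replicate 2 (1.01). Cht8 had 0.135 and 0.304 CPM in embryos, 0.43 and 0.81 in larvae and 16.8 and 7.29 in whole adults, a rise of 4.29 ± 0.64 over larvae (adjusted p = 0.00219) and of 5.76 ± 0.69 over embryos (adjusted p = 0.000485). Cht4 and Cht9 were instead larval. Cht4 had 135 and 12.8 CPM in larvae, 3.37 and 3.37 in embryos and 2.13 and 2.18 in whole adults. Cht9 had 25.9 and 4.97 CPM in larvae, 0.78 and 0.95 in embryos and 0.19 and 0.06 in whole adults. The larval libraries of these genes were far apart, in the same order as the 2888 and 1464 CPM of the midgut markers and the 840 and 130 CPM of the tanning genes. Markers of salivary gland (10798 and 5778 CPM), fat body (27664 and 19107 CPM) and testis (204 and 152 CPM) had that order too. Those of hemocytes (413 and 796 CPM) and head (26.2 and 53.2 CPM) had the reverse. The part of these lists in the result was not tested. Against embryos, Cht4 was higher by 4.46 ± 0.997 (adjusted p = 0.00734), with 1.92 without larva replicate 1 and no call without either embryo library (4.45 and 4.45). Against adults Cht4 lost its call without either whole adult library (-4.94 and -5.12) and had -2.57 without larva replicate 1. For Cht9 the difference from embryos was 4.15 ± 0.83 (adjusted p = 0.00452), with 2.51 without larva replicate 1. Its fall between embryos and adults (-2.81 ± 0.95, adjusted p = 0.0389) rested on few counts in adults, 9 and 3, and was lost without any 1 of the 4 libraries (-3.84 to -2.21).

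All Idgf genes tested were at their lowest in whole adults. Idgf4 (chromosome X, 9927973 to 9930948) had 1153 and 1064 CPM in embryos, 1012 and 1183 in larvae and 443 and 370 in whole adults. The fall from larvae was -1.43 ± 0.24 (adjusted p = 0.00332) and that from embryos -1.45 ± 0.24 (adjusted p = 0.00212). Idgf3 had 126 and 125, 253 and 232, and 81.8 and 80.3 CPM in the same order, and fell by 1.58 ± 0.17 from larva to adult (adjusted p = 0.000638). For Idgf5 the values were 26.2 and 26.3, 51.8 and 95.6, and 21.9 and 15.9 CPM. Larvae were above the other stages for both, and for Idgf5 the rise from embryos was 1.49 ± 0.32 (adjusted p = 0.00599, with the call lost without larva replicate 2, 0.98) and the fall to adults -1.96 ± 0.32 (adjusted p = 0.00313). Idgf2 had its peak in embryos, at 318 and 317 CPM, with 121 and 163 in larvae and 68.4 and 89.5 in whole adults. It fell by 1.16 ± 0.23 from embryo to larva (adjusted p = 0.00466), a call lost without larva replicate 1 (-0.97), and the difference between embryos and adults was -2.01 ± 0.24 (adjusted p = 0.000493). Hemocyte markers were also higher in larvae, at 413 and 796 CPM, than in embryos (135 and 140 CPM) and whole adults (92.0 and 143 CPM). Fat body markers summed to 27664 and 19107 CPM in larvae, 0.495 and 0.456 in embryos and 484 and 522 in whole adults. Of these markers, Fbp1 and Lsp2 were lower in whole adults than in larvae, while Yp1 was higher. The part of hemocyte or fat body markers in the result was not tested.

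In the adult parts, libraries with the same replicate number deviated together, so results with the replicate number as a block are given where they change a call. Scaling also mattered more than in the stages. When TMM factors were replaced by the size factors of DESeq2, the median change of all genes moved by -0.11 for male heads over male bodies, 0.36 for female heads over female bodies, -0.55 for male bodies over testes, -0.51 for female over male bodies, -0.95 for ovaries over testes and 0.50 for the difference between the sexes in the head-to-body change. In the stages it moved by -0.20 for larvae over embryos and 0.20 for whole adults over larvae. The share of higher genes among all genes called moved from 42.8% to 55.0% for female heads over female bodies, from 89.2% to 51.9% for male bodies over testes, from 46.8% to 29.4% for female over male bodies, from 48.9% to 32.2% for ovaries over testes, from 45.1% to 65.5% for the difference between the sexes and from 56.5% to 66.7% for whole adults over larvae.

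Heads and bodies differed in 2 sets of chitin genes. Chs2 and the chitinases Cht4, Cht8 and Cht9 were close to 0 in heads and present in bodies of both sexes, while Cda5 was higher in heads of both sexes. In males 1 gene was higher in heads (3.57% of 28 tested) and 5 were lower (17.9%), beside 20.9% and 30.6% of the 12597 genes tested, with a median change of 0.39 beside -0.09 for all genes. In females 8 were higher (28.6%) and 4 lower (14.3%), beside 19.2% and 25.6%, with medians of 0.94 and -0.36. The male count rested on male body replicate 2, without which 5 genes were called higher and 5 lower, and without male body replicate 1 none was called higher and 6 lower. In females the count of higher genes was 11 with the replicate block and 13 with DESeq2's size factors, with 4 lower in both, and it was 5 without female head replicate 2.

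The midgut synthase Chs2 showed the clearest difference. It had 0.36 and 0.32 CPM in male heads and 0.28 and 0.38 in female heads, against 23.1 and 37.2 in male bodies and 16.3 and 20.0 in female bodies. Every body library was above every head library, with a change of -6.48 ± 0.72 in males (adjusted p = 0.000136) and -5.76 ± 0.69 in females (adjusted p = 0.000147). Gonads were closer to heads, with 1.64 and 3.78 CPM in testes and 0.29 and 0.06 in ovaries. Midgut markers moved the same way, from 19.0 and 13.7 CPM in male heads and 12.1 and 13.5 in female heads to 1448 and 3631 in male bodies and 1111 and 1779 in female bodies, with 3 of the 3 markers called lower in heads of each sex. In testes they were at 24.7 and 18.1 CPM and in ovaries at 5.08 and 2.43 CPM. Their part in the result was not tested.

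The epidermal synthase kkv had the reverse order. Its levels were 54.4 and 52.7 CPM in male heads, 53.2 and 49.0 in female heads, 35.0 and 34.6 in male bodies and 20.1 and 12.8 in female bodies. Heads were above bodies in all libraries, by 1.63 ± 0.29 in females (adjusted p = 0.00142), whereas the 0.62 ± 0.28 in males did not pass (adjusted p = 0.0897). For mmy, whose product feeds both synthases, the libraries overlapped, with 93.1 and 114 CPM in male heads, 95.5 and 114 in female heads, 86.3 and 122 in male bodies and 76.8 and 100 in female bodies. Neither change passed (adjusted p = 0.99 in males and 0.57 in females).

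**Figure D3:**
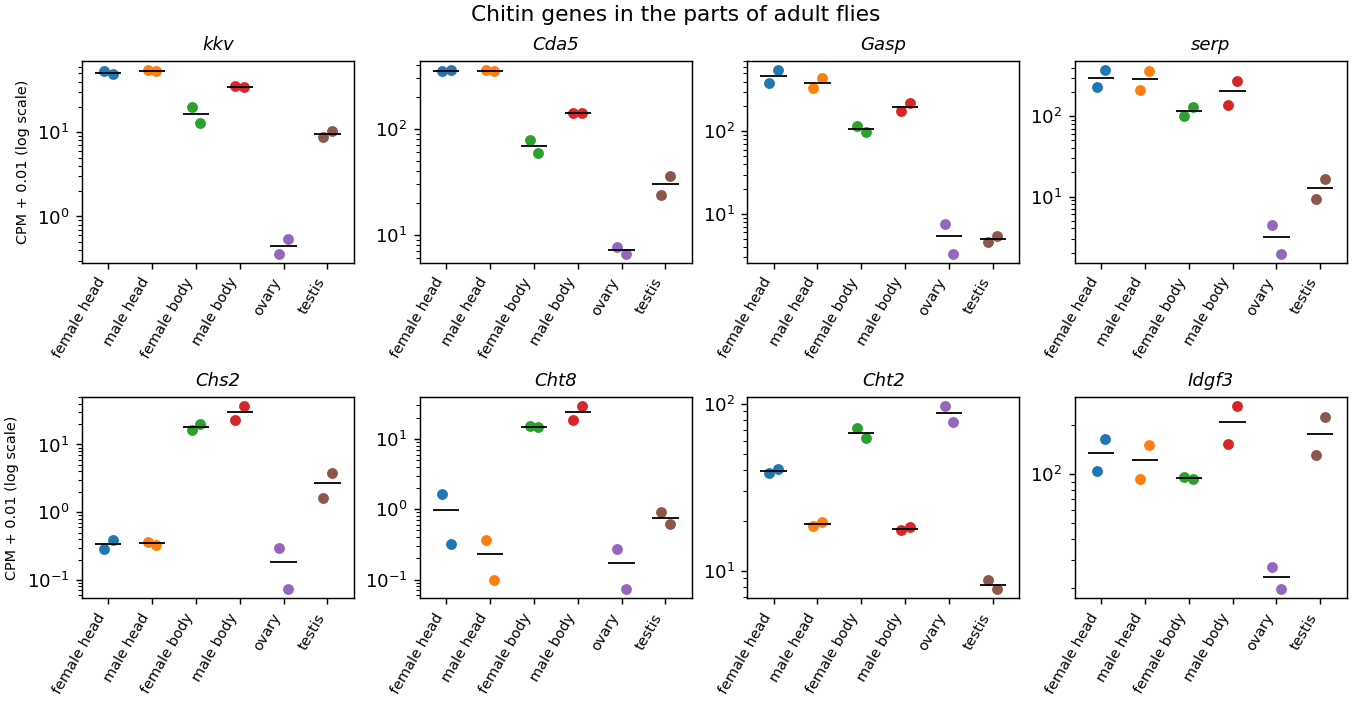
CPM + 0.01 on a log axis for 8 chitin genes in 6 adult parts, with 1 point per library and a line at the mean of 2 libraries. kkv, Cda5, Gasp and serp are highest in heads and lowest in gonads, Chs2 and Cht8 are high in bodies alone, and Cht2 is high in female bodies and ovaries.

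Among the organisation genes Cda5 (chromosome 2L, 25402 to 65404) was the one called in both sexes. It had 355 and 349 CPM in male heads, 350 and 356 in female heads, 141 and 140 in male bodies and 78.5 and 59.1 in female bodies. Heads were level between the sexes and above all bodies, by 1.33 ± 0.25 in males (adjusted p = 0.00198; 0.79 and no call without male body replicate 1) and 2.36 ± 0.26 in females (adjusted p = 8.59e-05). serp had 211 and 368 CPM in male heads, 233 and 374 in female heads, 137 and 275 in male bodies and 100 and 131 in female bodies. In males the groups overlapped. In females the difference of 1.39 ± 0.52 did not pass (adjusted p = 0.0521), though it did with the replicate block (adjusted p = 0.027). For verm the levels were 243 and 354 CPM in male heads, 262 and 371 in female heads, 127 and 185 in male bodies and 98.2 and 108 in female bodies. All heads were above all bodies, and the female difference passed (1.62 ± 0.45, adjusted p = 0.0148), though not without female head replicate 2 (1.35). knk stood at 1.66 and 1.69 CPM in male heads, 3.22 and 2.66 in female heads, 2.51 and 1.73 in male bodies and 1.84 and 0.51 in female bodies, and Cda4 at 5.85 to 38.4 CPM over the same 8 libraries. In the comparison of female heads with female bodies both were called higher with the block (adjusted p = 0.0385 and 0.0153) and not without it. Cda9 stayed at or under 1.42 CPM in every adult part.

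Gasp led the binding genes. It had 333 and 440 CPM in male heads, 384 and 547 in female heads, 175 and 221 in male bodies and 115 and 99.3 in female bodies. Heads exceeded bodies in all libraries, by 2.12 ± 0.39 in females (adjusted p = 0.0018) and 0.97 ± 0.38 in males, which did not pass (adjusted p = 0.055). obst-A had 81.8 and 118 CPM in male heads, 55.6 and 89.1 in female heads, 71.1 and 84.7 in male bodies and 39.8 and 32.0 in female bodies, and was not called in either sex (adjusted p = 0.48 and 0.0708). obst-B and obst-E were higher in female heads, by 1.31 ± 0.31 (adjusted p = 0.00677) and 1.77 ± 0.49 (adjusted p = 0.0143; 1.52 and no call without female head replicate 2). obst-H stayed at or under 0.60 CPM in all adult parts, and obst-F at or under 2 counts a library.

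**Figure D4:**
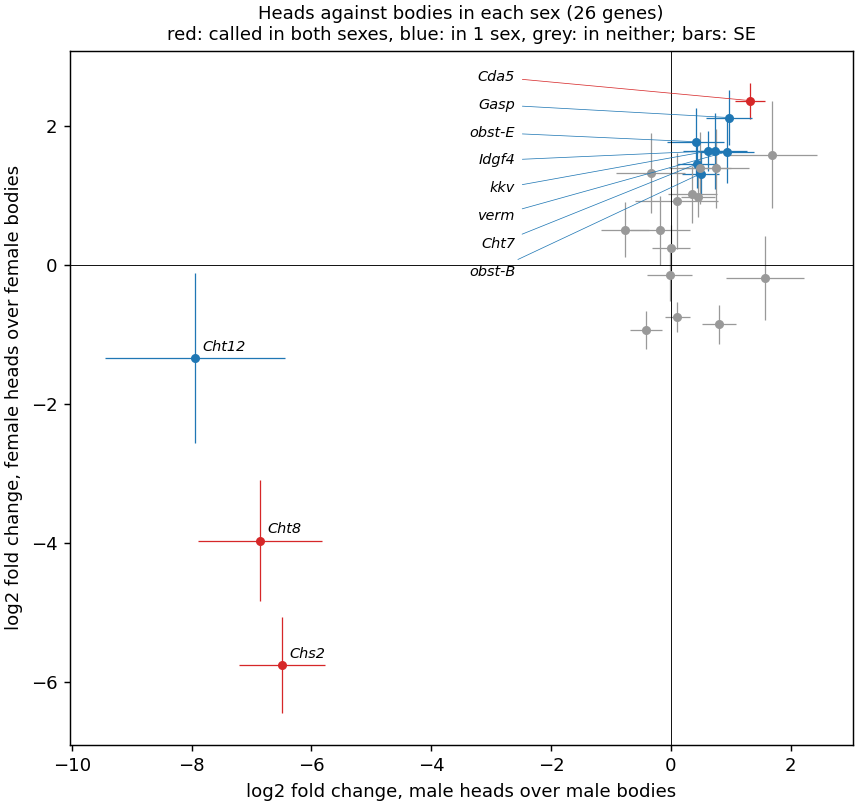
Log2 fold change of heads over bodies in males (x axis) and females (y axis) for 26 chitin genes, with bars of 1 SE; Cht4 and Cht9, at 0 to 2 counts in some groups of heads, are left out. Chs2 and Cht8 are far below 0 on both axes, Cht12 on the male axis, and the 8 genes called higher in female heads lie between 0.41 and 1.33 on the male axis.

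The chitinases that were lower in heads are neighbours. Cht8, Cht12, Cht4 and Cht9 lie in this order on chromosome 2R between 21061646 and 21069286, where Cht8 and Cht12 overlap at their ends by 2.23% and 1.93% of their spans. Cht8 had 0.36 and 0.09 CPM in male heads, 1.62 and 0.31 in female heads, 18.8 and 29.5 in male bodies and 15.1 and 14.9 in female bodies. The change was -6.85 ± 1.03 in males (adjusted p = 0.000634) and -3.97 ± 0.87 in females (adjusted p = 0.00456). Cht4 had 1 count in each male head library, 10 and 0 in female heads, and 7.89, 5.88, 5.73 and 4.05 CPM in the male and female bodies. Summed counts gave a ratio of male bodies to male heads of 308, with an exact 95% interval of 85.0 to 2550 that covers counting error only. In females the change was -5.44 ± 1.06 (adjusted p = 0.0024), and -10.97 without female head replicate 1, which held all 10 counts. Cht9 had no count in male heads, 0 and 2 counts in female heads, 0.83 and 1.24 CPM in male bodies and 1.05 and 1.30 in female bodies. Male bodies were at least 11.6-fold higher than the floor of 3 counts per library in male heads, and the female ratio was 56.0 with an interval of 15.2 to 468. The fitted female change moved to -8.90 without female head replicate 2, which held both counts. All 3 genes moved with the midgut markers given above for Chs2, whose part in the result was not tested.

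Cht12 differed from its neighbours. It had 180 and 106 CPM in male bodies and 384 and 284 in testes, but 0.98 and 0.23 in male heads, 0.60 and 0.33 in female heads, 2.19 and 0.16 in female bodies and 4.20 and 0.52 in ovaries. Only the 4 libraries of male bodies and testes were above 5 CPM, and the change from male bodies to male heads was -7.94 ± 1.4996 (adjusted p = 0.00196). Of 4 testis markers, 3 (can, dj and Mst87F) were also lower in male heads than in male bodies, while bol had 881 and 1024 CPM in male heads and 1000 and 963 in male bodies. Between the bodies all 4 were higher in males, and their part in the results was not tested. Cht12 was not called between male bodies and testes (adjusted p = 0.40).

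**Figure D5:**
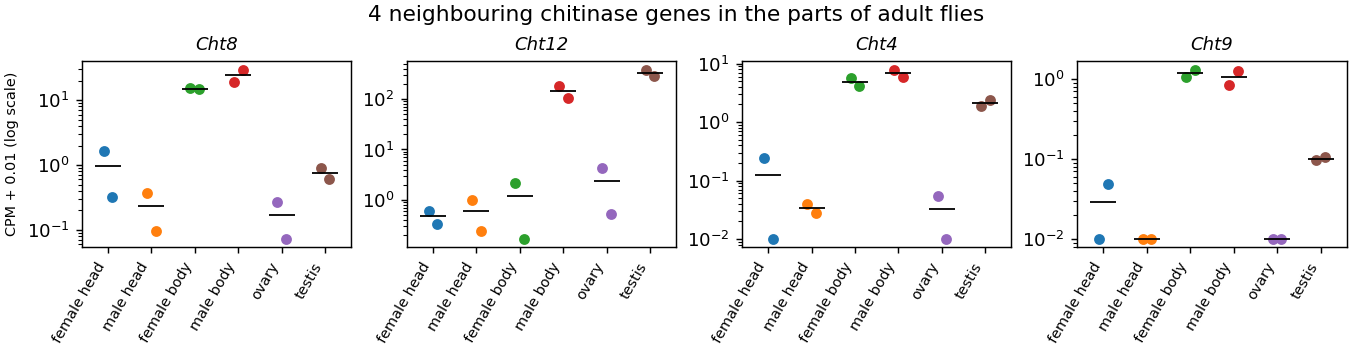
CPM + 0.01 on a log axis for the neighbouring chitinase genes Cht8, Cht12, Cht4 and Cht9 in 6 adult parts, with 1 point per library and a line at the mean of 2 libraries. Cht8, Cht4 and Cht9 are highest in bodies of both sexes, and Cht12 is highest in testes, followed by male bodies.

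The other chitinases varied less between heads and bodies. Cht7 was higher in female heads, at 73.7 and 87.1 CPM against 33.0 and 25.8 in female bodies (1.45 ± 0.34, adjusted p = 0.00664), and not in males, where heads had 71.0 and 88.1 and bodies 53.3 and 64.3 CPM. Cht5 had 11.4 and 10.7 CPM in male heads, 20.5 and 14.5 in female heads, 10.7 and 9.98 in male bodies and 11.4 and 7.11 in female bodies, and did not pass in either sex. Cht10 had 4.33 and 4.34, 4.10 and 4.43, 5.66 and 5.90, and 8.09 and 8.28 CPM in the same order. Its bodies were above its heads in each sex, by less than the fold limit (-0.94 ± 0.27 in females). Cht6 lay between 44.1 and 103 CPM over heads and bodies.

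Of the Idgf genes only Idgf4 was called, in females. It had 297 and 623 CPM in male heads, 586 and 1006 in female heads, 193 and 359 in male bodies and 233 and 278 in female bodies. The female change of 1.64 ± 0.55 (adjusted p = 0.0336; 0.0005 with the replicate block) was lost without female head replicate 2 (1.20) or either female body library (1.76 and 2.03). In all 6 parts replicate 2 was the higher library of Idgf4. Idgf3 had 93.8 and 150 CPM in male heads, 104 and 164 in female heads, 152 and 262 in male bodies and 95.6 and 93.5 in female bodies, without a call. Idgf2 ran from 44.9 to 75.3 CPM and Idgf5 from 6.56 to 17.9 CPM over the same libraries, also without a call. For Idgf2 the values were 44.9 and 75.1 in male heads, 50.7 and 72.8 in female heads, 48.5 and 73.0 in male bodies and 75.3 and 62.2 in female bodies. Idgf5 had 9.91 and 17.3, 9.36 and 9.68, 12.9 and 17.9, and 6.56 and 6.97 CPM in that order.

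Bodies exceeded gonads for most of the group. Of 28 genes tested, 18 were higher in male bodies than in testes (64.3%) and 0 lower, beside 24.0% and 2.89% of all genes, with a median of 2.27 beside 0.00. At an unadjusted p under 0.05, 1 gene was lower, Cht10, which DESeq2's Wald test also called (17 higher and 1 lower). Over ovaries, 19 genes were higher in female bodies (67.9%) and 0 lower, beside 19.6% and 0.127% of all genes, with a median of 3.90 beside -0.26 (3.84 with Cht9 at its bound). No gene was lower at an unadjusted p under 0.05 or with DESeq2. The gonad markers given above were abundant in bodies too, and the labels do not say that gonads were taken out of them. Markers of other tissues were also higher in bodies. Over testes these were 3 of 3 for midgut, 3 of 3 for hemocytes, 2 of 2 tested for flight muscle and 2 of 3 for fat body, and over ovaries 3 of 3, 2 of 3, 2 of 2 and 2 of 3. Their part in the results was not tested.

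For kkv the gonads had 8.76 and 10.3 CPM in testes and 0.35 and 0.53 in ovaries. Male bodies exceeded testes by 1.87 ± 0.29 (adjusted p = 0.00127) and female bodies exceeded ovaries by 5.20 ± 0.35 (adjusted p = 5.14e-05). Chs2 was higher in bodies by 3.47 ± 0.60 over testes (adjusted p = 0.00227) and 6.75 ± 0.74 over ovaries (adjusted p = 0.00021). mmy was the exception among the synthesis genes, with 52.2 and 65.9 CPM in testes and 57.8 and 101 in ovaries, and was not called against either body.

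The deacetylases and binding proteins were low in gonads. serp had 9.30 and 16.3 CPM in testes and 4.35 and 1.93 in ovaries, and verm 12.5 and 10.7 in testes and 2.97 and 1.04 in ovaries. The body-to-gonad change was 4.01 ± 0.58 in males and 5.21 ± 0.62 in females for serp, and 3.75 ± 0.49 and 5.69 ± 0.54 for verm (adjusted p from 0.000133 to 0.000826). Cda5 had 23.8 and 36.1 CPM in testes and 7.74 and 6.64 in ovaries, lower than bodies by 2.23 ± 0.26 (adjusted p = 0.000273) and 3.26 ± 0.27 (adjusted p = 7.48e-05). knk had 0.775 and 0.565 CPM in testes and 0.09 and 0.13 in ovaries. It was higher in female bodies than in ovaries (3.41 ± 0.69, adjusted p = 0.00557, and 2.13 without female body replicate 1). Over testes it was not called in male bodies, though it was called higher there with the block (adjusted p = 0.0307). Cda4 was higher in both bodies, by 2.81 ± 0.60 over testes, with no call without male body replicate 2 (1.95) or testis replicate 1 (2.63), and by 5.92 ± 0.74 over ovaries.

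Gasp had 4.63 and 5.44 CPM in testes and 7.60 and 3.31 in ovaries, and obst-A 0.84 and 1.23 in testes and 0.835 and 0.345 in ovaries. Gasp was higher in bodies by 5.30 ± 0.45 over testes (adjusted p = 8.98e-05) and 4.30 ± 0.43 over ovaries (adjusted p = 0.000156). obst-A was higher by 6.23 ± 0.52 (adjusted p = 8.58e-05) and 5.94 ± 0.52 (adjusted p = 9.38e-05). obst-B had 30.9 and 34.1 CPM in male bodies and 1.05 and 0.94 in testes, a change of 5.03 ± 0.37 (adjusted p = 6.55e-05). In females obst-B fell less steeply, from 25.4 and 18.7 CPM in bodies to 10.5 and 5.98 in ovaries (1.42 ± 0.31, adjusted p = 0.00918). obst-E was higher in female bodies (6.19 ± 0.63, adjusted p = 0.000158), and its male call (1.97 ± 0.49) was lost without either testis library (2.16 and 1.45) or male body replicate 2 (1.42).

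Cht7 was the chitinase with the widest gap that both sexes shared. Testes had 0.47 and 0.44 CPM and ovaries 0.615 and 0.267, lower than bodies by 7.01 ± 0.45 in males (adjusted p = 5.61e-05) and 6.08 ± 0.43 in females (adjusted p = 5.85e-05). Cht5 had 0.41 and 0.68 CPM in testes and 0.68 and 0.06 in ovaries, with bodies higher by 4.23 ± 0.80 (adjusted p = 0.00366; 3.93 and no call without testis replicate 1) and 4.69 ± 0.83 (adjusted p = 0.0027; 7.15 without ovary replicate 1). Cht8 followed, by 5.01 ± 0.91 and 6.57 ± 1.02. Cht6 was higher in bodies by 3.57 ± 0.31 over testes and 1.95 ± 0.29 over ovaries. With only the compared groups in the fit, the female calls of Cht5 (4.69), knk (3.48) and obst-B (1.49) were lost.

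Cht9 and Cht4 were near the floor in ovaries. Cht9 had 4 and 6 counts in testes and none in ovaries, with female bodies at least 17.9-fold higher, and its male difference (3.46 ± 0.74) was lost without either testis library (3.39 and 3.21) or male body replicate 2 (2.82). Cht4 had 2 and 0 counts in ovaries, a ratio of female bodies to ovaries of 268 with an interval of 73.8 to 2218, and 1.87 and 2.4 CPM in testes. Cht10, Cht11 and Cht12 were called against neither gonad. Cht10 had 8.41 and 9.59 CPM in testes and 10.1 and 8.44 in ovaries, level with or above the bodies. Cht2 was called higher in male bodies than in testes (1.11 ± 0.22), but the call was lost with DESeq2's size factors (0.55) and without male body replicate 2 (0.75) or testis replicate 2 (0.68).

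Idgf5 was low in ovaries, at 0.20 and 0.03 CPM, and had 3.23 and 3.29 in testes. Female bodies exceeded ovaries by 5.95 ± 0.67 (adjusted p = 0.000231), and the male difference (2.24 ± 0.52) was lost without either testis library (2.23 and 1.91) or male body replicate 2 (1.66). Idgf3 had 130 and 223 CPM in testes, overlapping the 152 and 262 of male bodies without a call, and 27.1 and 19.8 in ovaries, under female bodies by 2.01 ± 0.41 (adjusted p = 0.00595), a call lost without female body replicate 2 (1.66). Idgf2 showed the opposite, with 9.02 and 15.6 CPM in testes, under male bodies by 2.30 ± 0.39 (adjusted p = 0.00205; 1.65 and no call without male body replicate 2), and 65.0 and 52.7 in ovaries, level with female bodies. Idgf4 had 71.8 and 155 CPM in testes and 131 and 240 in ovaries, and was called against neither. With the block it was called higher in male bodies than in testes (adjusted p = 0.00227).

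No chitin gene passed the test between the heads of the sexes. Of the 28 tested, 0 were called, beside 0.0318% of all genes called either way. At an unadjusted p under 0.05, 2 genes were higher in females, and DESeq2's Wald test called 1, Cht2, with 38.5 and 40.8 CPM in female and 18.6 and 19.7 in male heads (1.05 in edgeR, adjusted p = 0.52).

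Between the bodies the count depended on single libraries and on scaling. In female bodies 2 genes were higher (7.14%) and 5 lower (17.9%), beside 24.4% and 27.7% of all genes, with a median of -0.65 beside -0.18. With DESeq2's size factors the counts were 2 and 12, with its Wald test 2 and 14, and with the replicate block 2 and 8. Without male body replicate 1, 1 gene was higher and 15 lower, without male body replicate 2 the counts were 2 and 1, and without female body replicate 2 they were 1 and 11. Midgut markers and the flight muscle marker Act88F were higher in replicate 2 of both bodies, while fln was lower there, with the values given above. The part of these markers in the result was not tested.

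Cht2 and Cht11 were higher in females in bodies and in gonads. Cht2 had 71.8 and 62.2 CPM in female bodies and 97.0 and 77.6 in ovaries, against 17.4 and 18.2 in male bodies and 8.76 and 7.75 in testes. All female libraries were above all male ones, by 1.91 ± 0.22 in bodies (adjusted p = 0.000243; 1.06 without male body replicate 1 and 1.24 without female body replicate 2) and 3.40 ± 0.23 in gonads (adjusted p = 9.01e-06). Cht11 had 13.0 and 15.3 CPM in female bodies, 16.1 and 17.7 in ovaries, 3.79 and 5.32 in male bodies and 2.30 and 2.36 in testes. The difference was 1.64 ± 0.29 in bodies (adjusted p = 0.00161), with no call without female body replicate 2 (0.75) or male body replicate 1 (0.58), and 2.86 ± 0.30 in gonads (adjusted p = 5.01e-05; 1.88 with DESeq2's size factors and 1.87 without ovary replicate 2).

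Cht12, Cda5, kkv, Idgf3 and obst-A were lower in female than in male bodies. For Cht12 the difference was -6.92 ± 1.42 (adjusted p = 0.00324). Cda5 differed by -1.03 ± 0.25 (adjusted p = 0.00707) and kkv by -1.08 ± 0.29 (adjusted p = 0.0106). Without male body replicate 1 these were -1.84 and -1.88, and without male body replicate 2 both calls were lost (-0.89 and -0.93). Without female body replicate 2, Cda5 had -1.61. With no filter on low counts the calls of Cda5 (-0.85), kkv (-0.90), Idgf3 (-0.95) and obst-A (-0.94) were lost, and with at least 10 counts in every library all 4 were kept (-1.71 to -1.63). Idgf3 (-1.13 ± 0.40) and obst-A (-1.12 ± 0.41) lost their calls without female body replicate 1 (-1.03 and -1.17) or male body replicate 2 (-0.55 and -0.84), and had -2.30 and -2.06 without male body replicate 1 and -1.88 and -1.74 without female body replicate 2. With the block, Cht7, Idgf5 and Cda4 were also called lower in female bodies (adjusted p = 0.0185, 0.0382 and 0.0299).

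Ovaries and testes differed in 19 of 28 genes. In ovaries 6 were higher (21.4%) and 13 lower (46.4%), beside 35.9% and 37.6% of all genes, with a median of -1.92 beside 0.00 (-1.31 with Cht9 at its bound). With DESeq2's size factors the counts were 4 and 16, and with upper-quartile scaling 5 and 15. Genes lower in ovaries included 2 of 3 for synthesis, kkv (-4.41 ± 0.34, adjusted p = 1.27e-05) and Chs2 (-4.02 ± 0.68, adjusted p = 0.000647), and 5 of 6 for organisation, of which Cda5 had the smallest adjusted p (-2.06 ± 0.26, adjusted p = 0.000125). Requiring at least 10 counts in every library moved Cda5 to -3.29, serp from -2.03 to -3.28, Cht2 to 2.17 and obst-B to 1.81, with their calls kept. obst-E was lower as well, with 0.33 and 0.06 CPM in ovaries and 6.43 and 5.04 in testes (-4.93 ± 0.60, adjusted p = 0.00011). Idgf3 and Idgf5 were lower in ovaries, by -2.92 ± 0.42 and -4.90 ± 0.65.

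Cht12 and Cht4 were also testis-biased, Cht12 by -7.16 ± 1.43 in ovaries (adjusted p = 0.00158) and Cht4 with a testis-to-ovary ratio of 119 (interval 32.5 to 987). Cht9 was called too, with a bound of at least 1.39-fold. Besides Cht2 and Cht11, the genes higher in ovaries were obst-B (3.05 ± 0.34, adjusted p = 6.63e-05), Idgf2 (2.26 ± 0.39, adjusted p = 0.000752; 1.28 with DESeq2's size factors and 1.49 without ovary replicate 2), obst-H and Cht6. The call of obst-H (2.52 ± 0.69) was lost with DESeq2's size factors (1.56) and without ovary replicate 2 (1.94) or testis replicate 1 (2.05). That of Cht6 (1.10 ± 0.29) was lost with those factors (0.12), with upper-quartile scaling (0.49) and without testis replicate 1 (0.98) or either ovary library (0.89 and 0.37), and its sign reversed with at least 10 counts required in every library (-0.14). With the block Cht8 was also lower in ovaries (adjusted p = 0.0285).

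The head-to-body change itself differed between the sexes for 3 genes, 2 with a higher female change (7.14%) and 1 with a lower one (3.57%), beside 15.7% and 19.1% of all genes. The median difference was 0.82 beside 0.17 for all genes. With DESeq2's size factors 8 were higher and 1 lower, and with its Wald test 11 and 1. No call was left without female head replicate 1 or without male head replicate 2, and 8 genes were higher and 0 lower without male body replicate 1. The genes were Cht12 (6.59 ± 1.80, adjusted p = 0.0219), Cda5 (1.03 ± 0.35, adjusted p = 0.0474) and Cht11 (-1.66 ± 0.40, adjusted p = 0.0132). With the block Cht8 was called too (2.88, adjusted p = 0.0458).

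Genes that act beside the group were read from lists of the same pathway. The chitin synthase partners exp and reb, which are needed for chitin deposition with kkv, were both higher in bodies than in gonads of each sex, and exp was higher in heads than in bodies of each sex. Their summed level was 248 and 221 CPM in embryos, 81.2 and 138 in larvae and 70.8 and 108 in whole adults. In adult parts it was 65.2 and 75.0 in male heads, 69.5 and 71.9 in female heads, 34.7 and 37.7 in male bodies, 30.9 and 21.5 in female bodies and at most 3.14 in any gonad library. Between stages, exp was lower in larvae than in embryos, and reb was lower in whole adults than in larvae and in embryos. In ovaries exp was called higher (3.01 and 1.99 CPM, against 1.12 and 1.29 in testes). There reb was called lower (0.13 and 0 CPM, against 0.39 and 0.34 in testes). Both genes were low in gonads, and DESeq2's size factors moved the median of all genes by -0.95 in this comparison. Their calls with those factors are not given here. Of 7 genes on the way from sugar to UDP-N-acetylglucosamine, 5 were higher in male bodies than in testes and 1 (Gfat1) in female bodies than in ovaries, and none was called between male heads and male bodies. Of all genes, 24.0% were higher in male bodies than in testes and 19.6% in female bodies than in ovaries. In female heads Gfat1 was higher and Gfat2 and nst were lower than in female bodies. Of 6 cuticle tanning genes tested, which include the tyrosine hydroxylase ple and the dopa decarboxylase Ddc, 3 were higher and 1 lower in male heads than in male bodies, and 5 were higher in female heads than in female bodies. In whole adults 4 were higher than in larvae and 0 lower. Of all genes, 20.9% were higher and 30.6% lower in male heads than in male bodies. For female heads and female bodies these shares were 19.2% and 25.6%, and for whole adults and larvae 23.1% and 17.8%.

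Some beta-N-acetylglucosaminidases finish the breakdown of chitin. Of 3 genes of this enzyme class, Hexo1 and Hexo2 were higher in larvae than in embryos and than in whole adults, and fdl was not called between stages. Of all genes, 31.7% were higher in larvae than in embryos and 17.8% lower in whole adults than in larvae. Peritrophin-15a, a gut peritrophin, was lower in heads than in bodies of each sex and was higher in larvae than in embryos and whole adults. Peritrophin-A, the other peritrophin tested, was higher in female heads (17.6 and 27.7 CPM) than in female bodies (9.01 and 8.49 CPM). It was not called between male heads and male bodies or between larvae and embryos, and was lower in whole adults than in larvae. Peritrophin-15b was at 0 throughout, and its overlap with other genes was not examined, so this is not read as absence. Of 10 genes of the apical zona pellucida matrix, which joins epidermis to cuticle, 4 were higher and 2 lower in male heads than in male bodies, and 6 were higher in female heads with 0 lower. The shares of all genes for heads are those given beside the tanning genes. In whole adults 0 of the 10 were higher and 3 lower than in larvae, and 0 and 4 than in embryos. In larvae 0 were higher and 1 lower than in embryos. Of all genes, 17.8%, 19.0% and 19.3% were lower in these comparisons.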

How the data were processed

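Poly(A) RNA was sequenced in 18 libraries. The authors trimmed reads with cutadapt 1.15 and aligned them with TopHat 2.1.1 to the dmel r6.15 (dm6) genome, and deposited raw counts over the whole span of each gene; the counting tool is not given in the sources used here. Genes were named from their FlyBase identifiers (17742 of 17825 had a symbol). The 34 members and all lists of markers and pathways were chosen with earlier results of these data known. Groups came from the sample labels. The 12 libraries of adult parts and the 6 of stages were fitted apart with edgeR 4.0.16 (R 4.3.3), using TMM factors, the filterByExpr filter with a minimum count of 10, and the quasi-likelihood test with Benjamini-Hochberg adjustment over the 12597 and 12335 genes kept. The SE was taken as |log2 fold change| / sqrt(F) from that test's F value. Genes named with values in every library were a core set and, per comparison, up to 3 called members per direction with the smallest adjusted p.

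In adult parts the deviations of libraries with the same replicate number correlated in all 15 pairs of groups (r 0.28 to 0.67), so a replicate block was fitted as the alternative. A fold against a group at 0 used 3 counts per library as the floor, taken at the TMM-scaled library size and as the higher value of the 2 libraries. Among the groups at 0 this floor ran from 0.0337 CPM in embryos to 0.0891 CPM in male heads. Intervals of ratios are exact 95% intervals on summed counts, and both cover counting error only. DESeq2 1.42.0, its size factors, upper-quartile scaling, other count filters, fits of only the groups compared and the omission of each library were the other alternatives. On simulated data, 200 genes were changed by a log2 fold change of 2. The male head and body fit recovered 54%, with 3 of the unchanged genes called (12284 genes run). The larva and embryo fit recovered 93%, with 13 called (12176 genes run). In that simulation the changed genes were drawn from well-counted ones, and all genes had the same spread. No other difference between groups was put in, so these shares do not cover genes near 0 or shifts of scaling.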

Additional observations from a re-analysis of the deposited data

Results flagged for a closer look

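In the test of the difference itself, the head-to-body change differed between females and males for 3 genes, each with 2 libraries per group. The female change was higher for 7.14% of the 28 genes tested and lower for 3.57%, beside 15.7% and 19.1% of all genes. For Cht12 the female change exceeded the male one by 6.59 (log2), since male bodies had 180 and 106 CPM and all heads and female bodies at most 2.19. The call was lost without female head replicate 1 (6.10) or male head replicate 2 (5.69). Of 4 testis markers, all were higher in male than in female bodies and 3 also higher in male bodies than in male heads, and their part in the result was not tested.

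For Cda5 the female change exceeded the male one by 1.03, with heads at 349 to 356 CPM in both sexes, male bodies at 141 and 140 and female bodies at 78.5 and 59.1. The call was kept only without female body replicate 2 (1.65) or male body replicate 1 (1.88) and lost without any 1 of the other 6 libraries (0.91 to 1.154). For Cht11 the difference was -1.66, with 7.27 to 8.45 CPM in heads, 3.79 and 5.32 in male bodies and 13.0 and 15.3 in female bodies. It lost its call without female body replicate 2 (-0.74), male body replicate 1 (-0.57), female head replicate 1 (-1.56) or male head replicate 2 (-1.67). Cht11 had 16.1 and 17.7 CPM in ovaries and 2.30 and 2.36 in testes. Cda5 had 7.74 and 6.64 CPM in ovaries and 23.8 and 36.1 in testes. Ovary markers summed to 7517 and 9872 CPM in female bodies and testis markers to 2172 and 1641 in male bodies. Their part in the results for Cda5 and Cht11 was not tested.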

How the results depend on the processing

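Of 138 calls of members, 135 were kept with DESeq2's Wald test, 134 with its size factors, 136 with upper-quartile scaling, 131 without a filter and 130 of 134 with only the groups compared; 32 were lost without at least 1 library. With at least 10 counts in every library 16 members were tested in adult parts, and the calls were 2 for male heads over bodies, 11 for male bodies over testes, 10 for female bodies over ovaries, 12 for female over male bodies and 8 for the difference between the sexes, while Cht6 between ovaries and testes turned to -0.1392. Without a filter male heads over bodies gave 11 calls and female over male bodies 4. Female over male bodies gave 16 with DESeq2's Wald test and 14 with its size factors, the difference between the sexes 12 and 9, and 6 with only heads and bodies fitted. Female over male heads gave 1 with the Wald test.

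Leaving out 1 library gave 6 to 10 calls for male heads over bodies, 9 to 13 for female heads over bodies, 12 to 19 for male bodies over testes, 18 to 20 for female bodies over ovaries, 0 for female over male heads, 3 to 16 for female over male bodies, 17 to 21 for ovaries over testes and 0 to 8 for the difference between the sexes. In the stages it gave 15 to 17 for larvae over embryos, 18 to 21 for whole adults over larvae and 14 to 17 for whole adults over embryos.

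With the replicate block the counts were 6, 15, 20, 19, 0, 10, 20 and 4 in the order of the adult comparisons above, with 10 calls gained and none lost. In the stages the numbers do not pair the libraries (r -0.05 to 0.12 in 3 pairs of groups), and the counts with the block were 16, 19 and 18, where Cht5 between adults and embryos was lost (adjusted p = 0.0682). With 2 libraries per group, the floor of 3 counts and the spread between libraries limit what can be called for genes near 0, such as Cda9, obst-F and obst-H in adult parts.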

Other observations

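Whole adults and adult parts, both labelled 24 h, were sequenced with different protocols and normalised apart, so their levels are listed for a few genes and neither tested nor ranked against each other. Cht5 had 514 and 1011 CPM in whole adults, and 0.06 to 20.5 CPM over the 12 libraries of adult parts. kkv had 316 and 442 CPM in whole adults, and 0.35 to 54.4 CPM over the parts. For Chs2 the values were 20.2 and 20.5 CPM in whole adults and 0.06 to 37.2 CPM over the parts. The ages given for the whole adults differ within the text of the study, and their part in these values was not tested.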
